A study of Mus musculus with 4 samples.

Results

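Integrins, laminins and cadherins are the cell-surface receptors and matrix proteins by which cells hold on to the basement membrane and to each other. The genes were taken as every one annotated to a probe set by a single symbol that begins with Itga, Itgb, Lama, Lamb, Lamc or Cdh directly followed by a digit, plus Itgav, with no measured value in the rule. This gave 37 genes, read by 59 of the 12469 probe sets on the array. By family there were 8 integrin alpha chains with 16 probe sets, 7 integrin beta chains with 10, 9 laminin chains with 14 and 12 cadherins with 16. The remaining 3 probe sets belong to Itgb1bp1, which the rule takes in by its symbol, although it encodes a cytoplasmic protein that binds the tail of an integrin beta chain and is not a chain itself.

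The RNA came from 4 clones of the mouse neural stem cell line c17.2, which is immortalised, kept proliferating, and each clone was read by 1 Affymetrix array. A stable transfection had given clone 42 and clone 48 the nuclear receptor Nurr1, which Nr4a2 encodes, and the control clones puroB and puroD an empty puromycin vector. Clone 42 is matched with puroB and clone 48 with puroD by growth rate, per the descriptions of the samples. The design text has the number of clone 42 in both matches, with the short form c48 in the second, and the descriptions were followed. Each line is a single clone, so that an effect of Nurr1 and a property of the clone picked cannot be told apart. The p-values and standard errors (SE) cover only these 2 clones per group. They take most of their spread from other probe sets, as given under the processing. The promoter behind Nurr1 was not given in the sources used here. Nr4a2 itself was not higher in the transfected clones, with 320.1 and 206 in Nurr1-labelled clones, against 485 and 254 in controls (92248_at) and 188 and 114, against 372 and 213 at 92249_g_at. Whether these probes lie within the transfected sequence is unknown here, and if they do not, the values do not check the labels. The transfected lines are therefore called Nurr1-labelled, and directions follow the labels.

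Integrins are heterodimers of an alpha and a beta chain, in which the alpha chain largely sets the ligand and the beta chain connects to the actin cytoskeleton through talin and other linker proteins. Laminins are trimers of an alpha, a beta and a gamma chain that assemble into the sheet of the basement membrane, together with collagen IV, nidogens and perlecan. In the developing brain, laminin at the pial and ventricular surfaces is bound by integrins on radial glia. Classical cadherins join neighbouring cells by calcium-dependent binding to the same cadherin, and catenins link their tails to actin.

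The values are MAS5 signals, each a linear intensity made from all probe pairs of the set, in arbitrary units, and levels of different probe sets are not comparable. Median signals ran from 125.6 to 147 in Nurr1-labelled clones and from 146 to 160.1 in control clones. Array controls for transcripts absent from the sample, 15 probe sets here called unspiked controls, reached at most 62.7 (clone 42), 39.1 (clone 48), 49.8 (puroB) and 59.1 (puroD), and signals at or under these levels are not separable from background. Both 3' to 5' ratios, which rise as RNA degrades, were higher in the Nurr1-labelled clone of each pair. Those of actin were 1.68 against 1.51 and 2.41 against 2.0, and those of Gapdh 0.935 against 0.859 and 1.24 against 0.973. Their part in the differences below was not tested.

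Neural stem and progenitor markers, 7 of 10 on the array, summed to 4657 and 4885 in Nurr1-labelled clones, against 5801 and 5949 in controls, and none was at the floor on all arrays. Fabp7 was lower, at 564.5 and 157, against 1292.5 and 1539, as were Id2 and Notch1 (97497_at, but not 162204_r_at). Nes, the brightest, overlapped, at 3174 and 3720, against 3325 and 3030. The dim Vim, not tested, read 84.6 and 61.5, against 29.8 and 57.7, with both control signals under the unspiked controls of their arrays. Msi1 and Pax6 overlapped. Of the markers of other cell types, Ptprc, Itgam and Itgb2 of blood cells, Cdh5, Tek and Tie1 of endothelium, and Epcam, Krt8 and Krt19 of epithelium were at the floor of 40.3 on all 4 arrays. Others on the same lists were not. The endothelial marker Eng read 3172 and 4016 in Nurr1-labelled clones, against 4018 and 4420.5 in controls, and Pecam1 80.2 and 75.2, against 158 and 121. The blood marker Csf1r read 186 and 182, against 155 and 233, and Cd68 146 and 80.1, against 139 and 134, while the epithelial Cdh1 is given below. Summed signals were 3478 and 4203, against 4376 and 4673, for 7 of 7 endothelial markers, 504 and 362, against 381 and 437, for 6 of 6 blood markers, and 647 and 458, against 774 and 569, for 6 of 6 epithelial markers. Fibroblast markers, 7 of 7 on the array with none at the floor throughout, summed to 8340 and 5364 in Nurr1-labelled clones, against 2245 and 3530 in controls. Col3a1 was higher, at 5020 and 4010, against 1288 and 1750.5 (98331_at). Col1a2 overlapped, at 2691 and 1007, against 524 and 1054 (101130_at), and so did Col1a1, at 267 and 208, against 239 and 559 (103709_at). Neuron markers, 7 of 7 with Snap25 and Syp at the floor on all arrays, summed to 6861 and 5465, against 3331 and 3303. Most of the neuron sum was Tubb3, at 5688 and 4633, against 2703 and 2704 (160462_f_at), and 3045 and 2590, against 813 and 810 at 161612_f_at. Nefl was higher, at 505 and 365, against 98.1 and 186. So was Nefm, at 380.5 and 350, against 110 and 129, bright enough to be tested only through the Nurr1-labelled clones. Stmn2 (95669_g_at) overlapped, at 233 and 97.5, against 196 and 147. The untested Map2 was lower, at 45.8 and 4.2, against 198 and 120.3, with both Nurr1-labelled signals under the unspiked controls. The progenitor, endothelial, fibroblast and neuron sums moved with the labels. A few bright probe sets carried each sum, and the genes of a list did not all move together. The part of these sums in the differences below was not tested. In bulk RNA, fewer cells of a type and less RNA per cell cannot be told apart.

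Of the 59 probe sets, 23, for 16 genes, were bright enough to be tested, with at least 2 of 4 arrays above the median of all signals (145.05). Signals under the floor, the 30th percentile of all signals, were set to it, and the groups were compared on the log2 scale with limma, with the matched pair as a block. None of the 23 passed at a Benjamini-Hochberg adjusted p of 0.05, where 7 of all 6419 tested probe sets (0.109%) did. At an unadjusted p under 0.05 there were 7 of the 23 members, against a background of 7.38%. Of these 7, 6 were lower (background 5.06%) and 1 was higher (background 2.32%) in Nurr1-labelled clones. The 6 lower probe sets were both of Lamb1 and those of Lama4, Lama5, Itga6 and Itgav (98366_at), and the higher one was of Itga7 (161497_f_at).

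Both Nurr1-labelled clones lay below both control clones at 6 of the 23 members, where the background was 17.9%. They lay above both control clones at another 6, with a background of 12.8%. Over the matched pairs, 11 members were lower in both (background 29.7%) and 6 were higher in both (background 21.7%). The median log2 difference over the tested members was -0.14, beside -0.04 over all tested probe sets. It was -0.74 for the 6 laminin probe sets, -0.03 for the 12 of integrin chains and -0.15 for the 3 of cadherins. The counts of lower members and the laminin median include Lamb1 101948_at, tested only through the control clones.

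**Figure D1:**
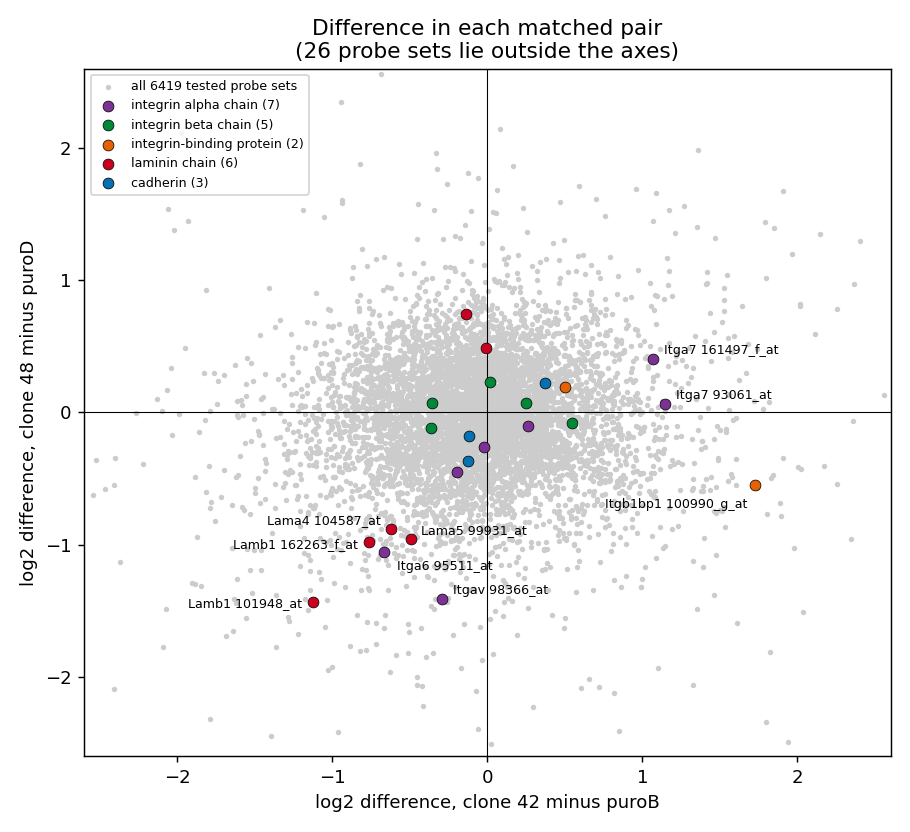
Log2 difference in signal in the matched pair of clone 42 and puroB (x axis) and in that of clone 48 and puroD (y axis), for all 6419 tested probe sets (grey) and the 23 tested members (coloured by family). Probe sets of Lamb1, Lama4, Lama5 and Itga6 lie at the lower left, lower in the Nurr1-labelled clone of both pairs, and 26 probe sets lie outside the axes.

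Laminin chains had the lowest median of the families. Lamb1 encodes a beta chain found in most laminins of embryonic tissue. Its probe set 101948_at read 112 (clone 42) and 92.3 (clone 48), against 245 (puroB) and 249 (puroD). The Nurr1-labelled clones were both below the controls, by 2.18-fold and 2.70-fold in the pairs, while the control clones differed by 1.02-fold. The mean log2 difference was -1.28 ± 0.38 (SE, n = 2 per group; limma adjusted p = 0.260).

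The other Lamb1 probe set, 162263_f_at, read 180.3 (clone 42) and 192 (clone 48), against 306 (puroB) and 379 (puroD). Again the groups did not overlap, with 1.70-fold and 1.98-fold lower signals in the pairs and a mean log2 difference of -0.87 ± 0.32 (SE, n = 2 per group; limma adjusted p = 0.456). By Affymetrix naming, a probe set that ends in _f_at holds probes shared within a gene family, so that it may read related transcripts as well.

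Lama4 encodes an alpha chain of vascular and other mesenchymal basement membranes. Its probe set 104587_at read 797 (clone 42) and 777 (clone 48), against 1223 (puroB) and 1433 (puroD). The Nurr1-labelled clones lay close together and below both controls, by 1.54-fold and 1.84-fold in the pairs, with a mean log2 difference of -0.75 ± 0.30 (SE, n = 2 per group; limma adjusted p = 0.541). A further Lama4 probe set was at the floor on all arrays.

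Lama5 encodes an alpha chain that is widespread in mature basement membranes. Its probe set 99931_at read 316 (clone 42) and 192 (clone 48), against 446 (puroB) and 372 (puroD), so that clone 48 was the lowest and the groups did not overlap. The mean log2 difference was -0.73 ± 0.30 (SE, n = 2 per group; limma adjusted p = 0.574), and it was -0.36 without clone 48. At the dimmer probe set 161702_f_at, which was not tested, the groups overlapped, with 90.8 and 47.0 in Nurr1-labelled clones, against 91.7 and 57.1 in controls.

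The beta chain Lamb2 and the gamma chain Lamc1 were not lower in both pairs. Lamb2, known from laminins of synapses and kidney, read 319.8 and 373 in Nurr1-labelled clones, against 322 and 267 in controls. Lamc1, the gamma chain common to most laminins, read 821 and 1281, against 903 and 765 (161706_f_at), with clone 48 the highest and groups that overlapped. Mean log2 differences were 0.24 ± 0.30 (SE, n = 2 per group; limma adjusted p = 0.970) for Lamb2 and 0.30 ± 0.32 (SE, n = 2 per group; limma adjusted p = 0.958) for Lamc1. The other Lamc1 probe set, 102404_at, was at the floor on all arrays. Whether the chains differed from each other was not tested.

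**Figure D2:**
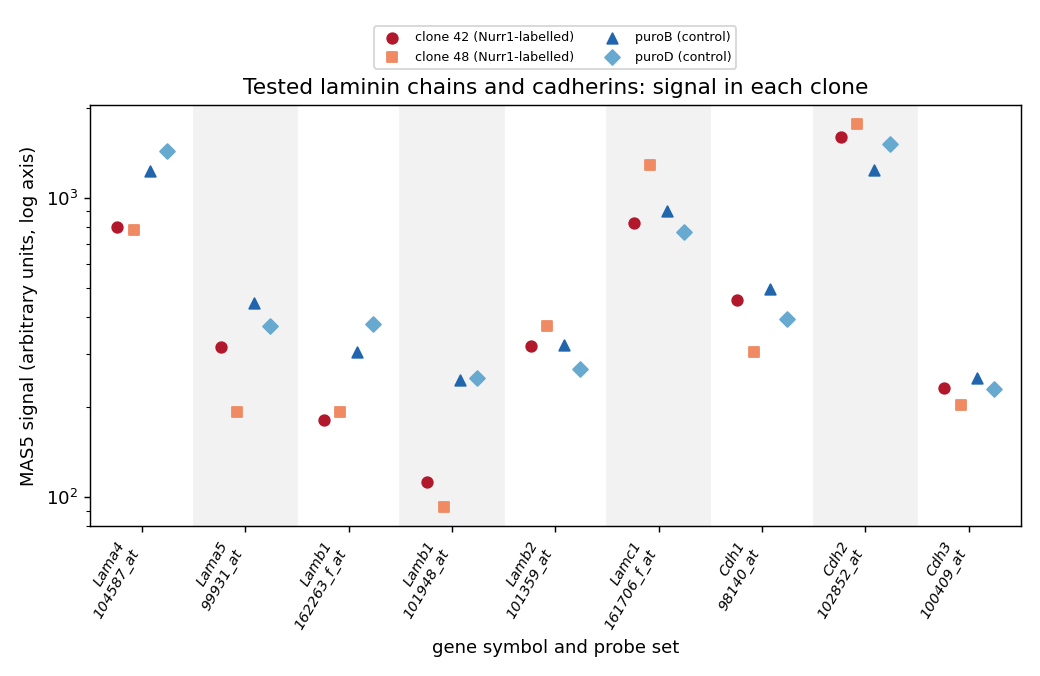
MAS5 signal (log axis) of the tested probe sets of laminin chains (6) and cadherins (3) in each of the 4 clones, 1 point per array. At Lama4, Lama5 and both Lamb1 probe sets the 2 Nurr1-labelled points lie below the 2 control points, whereas at Lamb2, Lamc1, Cdh1 and Cdh3 the groups overlap and at Cdh2 the Nurr1-labelled points lie above.

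Promoter sequences are shown for Lamb1 and Lama5, laminin chains that were lower in both pairs, and for Itgb1, an integrin chain that was not. They run from 250 bases before to 50 bases after the gene's start in RefSeq's GRCm38.p6 annotation, 5′ to 3′ on the gene's strand. Capitals mark matches on either strand to GGGCGG, the GC box bound by Sp factors.

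Lamb1: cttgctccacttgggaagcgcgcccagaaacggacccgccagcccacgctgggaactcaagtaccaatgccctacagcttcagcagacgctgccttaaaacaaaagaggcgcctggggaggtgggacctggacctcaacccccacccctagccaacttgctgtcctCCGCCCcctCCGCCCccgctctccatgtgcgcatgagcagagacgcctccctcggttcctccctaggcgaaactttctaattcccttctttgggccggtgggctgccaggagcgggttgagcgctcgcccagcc
Lama5: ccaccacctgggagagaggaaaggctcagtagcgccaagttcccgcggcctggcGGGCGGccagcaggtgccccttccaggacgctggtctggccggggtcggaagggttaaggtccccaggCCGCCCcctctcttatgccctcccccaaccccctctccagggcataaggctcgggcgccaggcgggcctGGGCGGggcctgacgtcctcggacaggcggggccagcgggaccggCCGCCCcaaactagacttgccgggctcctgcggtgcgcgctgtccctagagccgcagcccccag
Itgb1: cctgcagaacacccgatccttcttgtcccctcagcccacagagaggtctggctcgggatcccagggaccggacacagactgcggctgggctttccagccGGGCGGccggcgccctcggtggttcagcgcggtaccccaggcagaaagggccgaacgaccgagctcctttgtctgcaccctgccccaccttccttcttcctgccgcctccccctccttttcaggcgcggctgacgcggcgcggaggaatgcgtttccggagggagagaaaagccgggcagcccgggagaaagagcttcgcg

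These windows lie at chr12:31265043-31265342 on the plus strand for Lamb1, at chr2:180225810-180226109 on the minus strand for Lama5 and at chr8:128685404-128685703 on the plus strand for Itgb1. The GC box matched at 2 places in the Lamb1 window, 4 in that of Lama5 and 1 in that of Itgb1, and their GC contents were 63.7%, 72.7% and 67.3%. RefSeq's table held promoters for 21 of the 37 genes, 23 windows in all, of which 14 (60.9%) held GGGCGG, where 35.7% of all 32851 windows did. The letters AAAGGTCA, the element that Nurr1 binds as a monomer, were in 0 of the 23 windows and in 1.51% of all windows. TATAAA, the TATA box, was in 0 of the 23 and in 13.6% of all. All 3 motifs were searched on both strands.

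Among the integrin alpha chains, those that bind laminin went in different directions. Itga6, which pairs with Itgb1 or Itgb4, read 619 (clone 42) and 486 (clone 48), against 982 (puroB) and 1009 (puroD) at 95511_at. Both Nurr1-labelled clones were below both controls, by 1.59-fold and 2.07-fold in the pairs, while the control clones differed by 1.03-fold. The mean log2 difference was -0.86 ± 0.30 (SE, n = 2 per group; limma adjusted p = 0.383).

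Itga7, a laminin receptor best known from muscle, was higher in both Nurr1-labelled clones. Probe set 161497_f_at read 427 (clone 42) and 330.4 (clone 48), against 204 (puroB) and 250.0 (puroD), a mean log2 difference of 0.73 ± 0.32 (SE, n = 2 per group; limma adjusted p = 0.588). At 93061_at it read 512 and 377, against 232 and 361. The groups did not overlap at either probe set, but at 93061_at the pairs differed by 2.21-fold and 1.04-fold, and the mean log2 difference was 0.60 ± 0.32 (SE, n = 2 per group; limma adjusted p = 0.789). Without clone 42 it was 0.38 at 93061_at and 0.55 at 161497_f_at, and without puroB 0.28 and 0.59. A further Itga7 probe set was at the floor on all arrays.

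Itga3, a laminin receptor of epithelia, read 184 and 87.2 in Nurr1-labelled clones, against 211 and 119 in controls (104211_at). Each Nurr1-labelled clone was below its own match, but the clones of the first pair were above those of the other, and the groups overlapped. The mean log2 difference was -0.32 ± 0.41 (SE, n = 2 per group; limma adjusted p = 0.970), smaller in size than the difference of 0.83 between puroB and puroD. It was 0.22 without clone 48 and 0.09 without puroB, and thus of the opposite sign. The dimmer probe set 104210_at, singled out after its values were seen, read 45.1 and 25.4, against 125 and 60, where both Nurr1-labelled signals lay under the unspiked controls.

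The alpha chain Itgav, which binds vitronectin and other ligands with the RGD motif, was read by 3 probe sets. At 104386_f_at the signals were 7048 and 5501 in Nurr1-labelled clones, against 5870 and 5912 in controls, and at 104385_i_at 334 and 316, against 339 and 379.5. At 98366_at they were 297 and 76.9, against 362 and 204, and clone 48 stood apart from the others. The mean log2 difference at 98366_at was -0.85 ± 0.37 (SE, n = 2 per group; limma adjusted p = 0.604), but it was 0.12 without clone 48. At the other probe sets it was 0.08 and -0.14, so that the 3 probe sets spread over 0.93.

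The 5 tested beta chain probe sets had mean log2 differences between -0.24 and 0.23, and 0 of them reached an unadjusted p of 0.05 in limma or a 2-fold difference in either pair. Itgb1, the partner of most alpha chains, read 8556 (clone 42) and 5263 (clone 48), against 5861 (puroB) and 5568 (puroD) at 100123_f_at, with clone 42 the highest and groups that overlapped. At 100124_r_at it read 2967 and 2523, against 2492 and 2404, with groups that did not overlap. The mean log2 differences were 0.23 ± 0.32 (SE, n = 2 per group; limma adjusted p = 0.974) and 0.16 ± 0.31 (SE, n = 2 per group; limma adjusted p = 0.993). Without clone 42 that of 100123_f_at was -0.12.

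Itgb5, a partner of Itgav, read 775 and 911 in Nurr1-labelled clones, against 993 and 869.6 in controls (100601_at), and 246 and 245, against 244 and 209 at 162218_f_at. Itgb7, a partner of Itga4 known from lymphocytes, read 229.8 and 181, against 296 and 197. The groups overlapped at 100601_at and at Itgb7, and at 162218_f_at the Nurr1-labelled clones were higher by 1.01-fold and 1.17-fold in the pairs.

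Itgb1bp1, which competes with talin for the tail of Itgb1, had the widest gap between the pairs among the tested members. At 100990_g_at it read 1072 (clone 42) and 484 (clone 48), against 325 (puroB) and 707 (puroD), or 3.30-fold higher in clone 42 and 1.46-fold lower in clone 48 than in the matched control. The control clones themselves differed by 2.18-fold, and the mean log2 difference of 0.59 was 0.01 without clone 42 and 0.03 without puroB. At 100989_at the signals were 448 and 403, against 317 and 353, with groups that did not overlap and a mean log2 difference of 0.35 ± 0.29 (SE, n = 2 per group; limma adjusted p = 0.915). At the untested 100991_at they were 137 and 79.2, against 168 and 103.

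**Figure D3:**
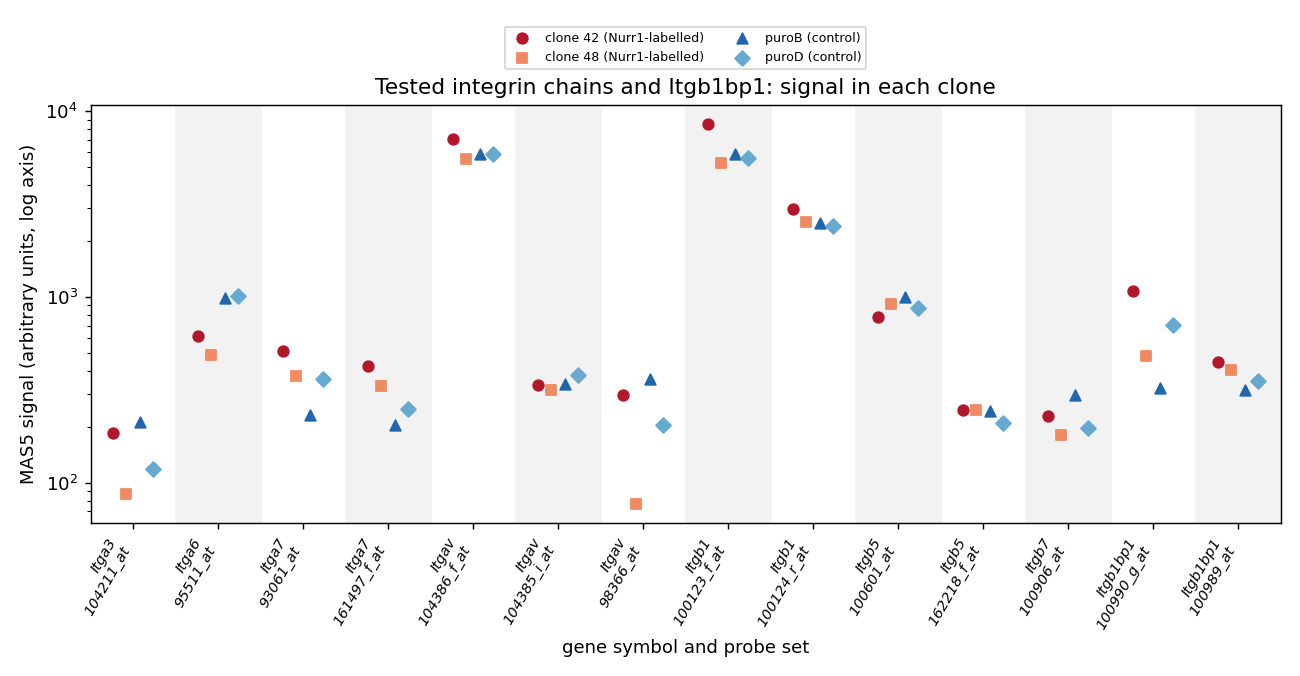
MAS5 signal (log axis) of the tested probe sets of integrin chains (12) and Itgb1bp1 (2) in each of the 4 clones, 1 point per array. The 2 Nurr1-labelled points lie below both controls at Itga6 and above them at both Itga7 probe sets, and clone 48 stands apart at Itgav 98366_at.

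Several receptors were too dim to be tested, and the following were singled out after their values were seen. Itga4, which binds fibronectin and the adhesion molecule Vcam1, read 37.4 (clone 42) and 26.3 (clone 48), against 140.4 (puroB) and 94.6 (puroD) at 102655_at, with both Nurr1-labelled clones under the floor. With the floor in their place, the signals were at least 3.48-fold and 2.35-fold lower than in the matched controls. The floor lies under the highest unspiked control of clone 42, so the first bound is one of signal only. At 95292_at Itga4 read 63.1 and 62.7, against 119 and 94.6, and a further probe set was at the floor on all arrays.

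Itgb4, the beta chain that pairs with Itga6 in hemidesmosomes, read 65.8 (clone 42) and 71.7 (clone 48), against 166 (puroB) and 117 (puroD). Itga8, a receptor of nephronectin, read 24.8 and 52.3, against 88.3 and 96.3, with clone 42 under the floor. Itga5, the alpha chain of the classical fibronectin receptor, went the other way, with 187 and 131 in Nurr1-labelled clones, against 66.1 and 106 in controls. Lama1, an alpha chain of the early embryo, read 46.9 and 64.1, against 126 and 71.6, with clone 42 under its highest unspiked control. The groups did not overlap at these genes, and none has a p-value.

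Of the 36 untested probe sets, 17 were at the floor on all 4 arrays and 18 exceeded the unspiked controls of the same array on at least 1. Both Nurr1-labelled clones lay below both controls at 7 of the 36 and above them at 1, where the shares over all 5984 untested probe sets were 11.2% and 3.84%. The 21 genes with no tested probe set were Itga2, Itga4, Itga5, Itga8, Itgb2, Itgb2l, Itgb3, Itgb4, Lama1, Lama2, Lama3, Lamb3, Cdh4, Cdh5, Cdh6, Cdh8, Cdh9, Cdh10, Cdh13, Cdh15 and Cdh16. Signals of the 36 ran from 1.3 to 247, the highest being Cdh10 in clone 48. Itgb2, the leukocyte beta chain, Lama3 and Lamb3, chains of epidermal laminin, and Cdh5 of endothelium were at the floor on all arrays.

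**Figure D4:**
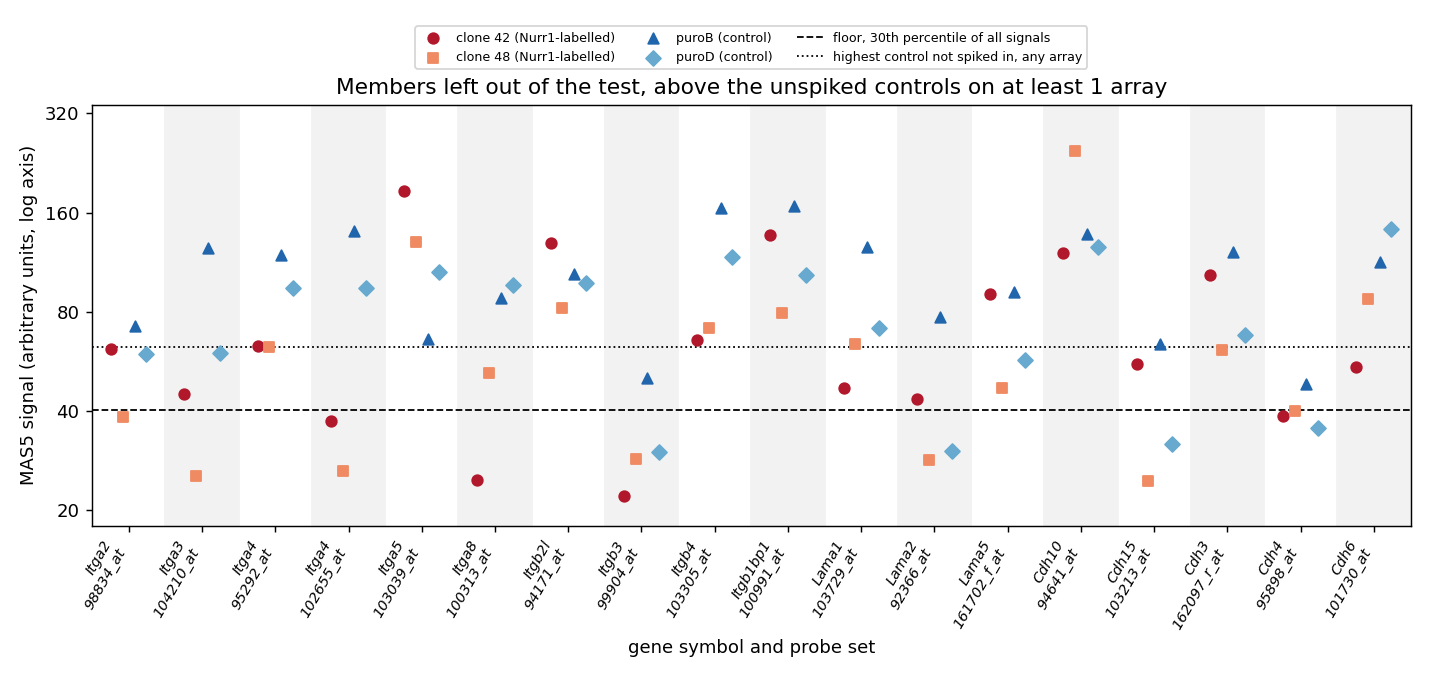
MAS5 signal (log axis) of the 18 untested probe sets that exceeded the unspiked controls of the same array on at least 1 array, in each clone. The dashed line is the floor of 40.3 and the dotted line the highest unspiked control on any array, 62.7. Itga4, Itgb4, Itga8 and Cdh6 have both Nurr1-labelled points below both controls, and Itga5 has both above.

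Among the cadherins, Cdh2, the cadherin of neural progenitors, read 1597 (clone 42) and 1764 (clone 48), against 1234 (puroB) and 1515 (puroD). Both Nurr1-labelled clones were above both controls, with a mean log2 difference of 0.30 ± 0.31 (SE, n = 2 per group; limma adjusted p = 0.953) beside -0.30 between puroB and puroD. It was 0.15 without puroB and 0.44 without puroD. Cdh1, the epithelial cadherin, read 455 and 304, against 497 and 393, a mean log2 difference of -0.25 ± 0.29 (SE, n = 2 per group; limma adjusted p = 0.968). It was 0.04 without clone 48.

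Cdh3, the cadherin of placenta and basal epithelia, read 231 and 202 in Nurr1-labelled clones, against 250.2 and 229 in controls, a mean log2 difference of -0.15 ± 0.33 (SE, n = 2 per group; limma adjusted p = 0.995). A second Cdh3 probe set, 162097_r_at, read 103 and 61.2, against 121 and 68.3. Among untested cadherins, singled out after their values were seen, Cdh6 read 54.5 and 87.5, against 113 and 143, with groups that did not overlap. At Cdh6 the signal of clone 42 lay under its highest unspiked control. Cdh10 read 120.5 and 247, against 137 and 126, where clone 48 alone was high. The other 7 cadherin genes without a tested probe set had no signal above 64.

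Within single pairs, 4 of the 23 tested members differed by 2-fold or more between clone 42 and puroB, where 8.35% of all tested probe sets did. They were both Itga7 probe sets, 100990_g_at of Itgb1bp1 and 101948_at of Lamb1. Between clone 48 and puroD there were 3, Lamb1 (101948_at), Itga6 and Itgav (98366_at), where the background was 5.39%. Between the control clones, puroB and puroD, 1 of 23 differed by 2-fold, 100990_g_at of Itgb1bp1, where the background was 6.06%. Across the 23 members, the differences of the matched pairs correlated with r = 0.51, beside 0.086 across all tested probe sets. The pairs share no array, but several members are probe sets of the same gene and genes are not independent replicates. Lamb1 101948_at, which is in both 2-fold counts and in the correlation, passed the filter only through the control clones.

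For Lamb1 (101948_at, tested only through the control clones), Itga6 and Lama4 the groups were further apart than the clones within either group. The mean log2 differences of -1.28, -0.86 and -0.75 stood beside differences between clone 42 and clone 48 of 0.28, 0.35 and 0.04, and between puroB and puroD of -0.03, -0.04 and -0.23. The same held for Lamb1 162263_f_at (-0.87, beside -0.09 and -0.31). It also held for probe sets higher in the Nurr1-labelled clones, Itga7 161497_f_at (0.73, beside 0.37 and -0.30) and Itgb1bp1 100989_at (0.35, beside 0.15 and -0.16). For Lama5, clone 42 and clone 48 differed by 0.72, about as much as the groups did (-0.73). For Itga3 and Itgb1bp1 (100990_g_at) the clones of both groups differed from each other by more than the groups did.

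**Figure D5:**
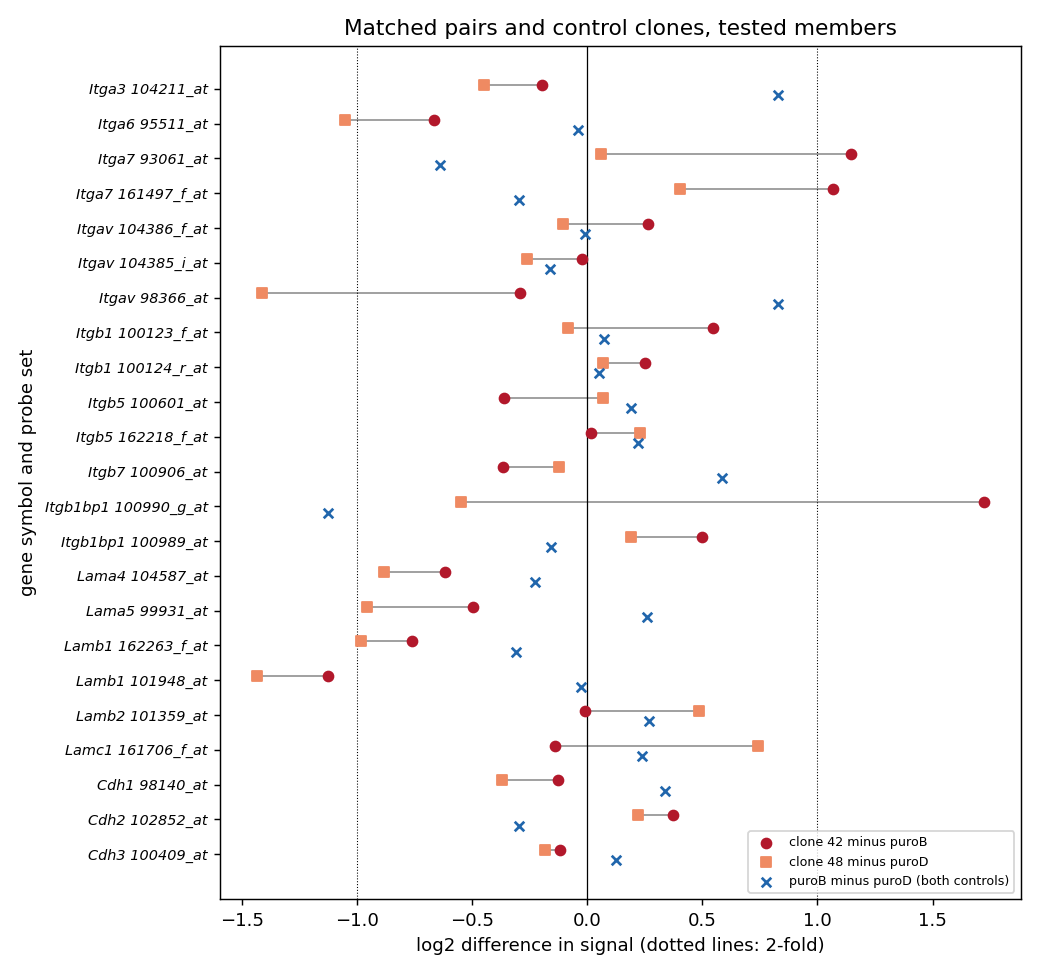
Log2 differences of the 23 tested members in clone 42 minus puroB (circles), clone 48 minus puroD (squares) and puroB minus puroD (crosses), with dotted lines at 2-fold. Both matched pairs lie left of zero at Itga6, Lama4, Lama5 and both Lamb1 probe sets, with puroB minus puroD between -0.31 and 0.26 there, while at Itgb1bp1 100990_g_at the pairs lie on opposite sides.

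Genes that work with these receptors were taken from lists of their pathways. Beside the counts for each list below, 0.109% of all tested probe sets passed the adjusted threshold in limma. At an unadjusted p under 0.05, 5.06% of all were lower and 2.32% higher. The lists were chosen with earlier results known, and their counts were not tested against these shares. Of 9 tested basement membrane partners, 0 passed over all probe sets in limma, 2 were lower and 0 higher at an unadjusted p under 0.05, and their median log2 difference was -0.10. The 2 were the collagen IV chains, which form the other network of the basement membrane. Col4a1 read 1030 and 1639 in Nurr1-labelled clones, against 3222 and 2661 in controls (mean log2 difference -1.17, limma adjusted p = 0.227), and Col4a2 read 1116 and 1574, against 3012 and 2479 (-1.04, adjusted p = 0.293). Nid2, a nidogen that links laminin to collagen IV, had -0.42, and Sdc4, a syndecan, -0.32.

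Of 4 tested genes on the list of further integrin ligands, 1 passed, and the median log2 difference was 0.36. Tnc, the matrix glycoprotein tenascin C, read 1475 (clone 42) and 409 (clone 48), against 89.7 (puroB) and 121 (puroD) (mean log2 difference 2.90, limma adjusted p = 0.0487). The call was lost without the pair block, with quantile normalization, without the floor, without the filter, without clone 42 and without puroB, with adjusted p between 0.0625 and 0.903 in limma. Tnc passed the filter only through the Nurr1-labelled clones, where it is high, so its call is no support for a difference. With all 4 arrays required above the median it was not tested, and the difference was between 1.97 and 3.82 when a clone was left out. Postn, periostin, read 6109 and 5250, against 2825 and 3760 (0.80, adjusted p = 0.550). Mfge8, which binds Itgav dimers, had -0.43 and Fn1, fibronectin, -0.08. Npnt, nephronectin, the matrix ligand of Itga8, was not tested and was singled out after its values were seen. It read 21.8 and 56.8 in Nurr1-labelled clones, against 379 and 91.1 in controls, and puroB stood apart.

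Of 11 tested focal adhesion genes, which couple integrin tails to actin, 0 passed in limma, 1 was higher and 0 lower at an unadjusted p under 0.05, and the median log2 difference was 0.13. Rsu1, a partner of the integrin-linked kinase complex, had 0.69 (limma adjusted p = 0.663), beside 1.17 between puroB and puroD. Cav1, the caveolae protein caveolin, had 0.57 (adjusted p = 0.740), the docking protein Bcar1 0.29 and the adaptor Lims1 -0.18. Of 8 integrin-associated membrane proteins, 0 passed in limma and 0 had an unadjusted p under 0.05. Their median was 0.14, with Bsg at -0.43, the tetraspanins Cd81 at 0.35 and Cd9 at -0.31, and Cd47 at 0.23 at 103611_at but -0.25 at 95020_at. The other integrin alpha chains on the array, Itgal, Itgam, Itgae and Itgax of leukocytes, were too dim to be tested.

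Of 7 tested catenins and related plaque proteins, 0 passed in limma and 1 had an unadjusted p under 0.05, with a median log2 difference of -0.24. It was the desmosomal Pkp2, which read 381 and 609 in Nurr1-labelled clones, against 819 and 809 in controls (mean log2 difference -0.76, limma adjusted p = 0.536). Ctnna1, the alpha-catenin that binds actin, had 0.54, Ctnnd2 -0.42 and Pkp4 0.40. Of the other cadherin superfamily genes, 2 were tested, with a median of 0.40 and 0 past the adjusted threshold. Pcdh7, a protocadherin, read 269.6 and 314, against 196 and 142 (0.81, limma adjusted p = 0.582), and Celsr2 had -0.004 at 92363_at and 0.29 at 92364_at.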

How the data were processed

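Processed signals of 4 arrays were analysed, 1 per clone. The authors deposited an intensity on a linear scale for each probe set. They used MAS5, per the submitters' processing notes, with version, scaling target and detection calls not given in the sources used here. Trimmed means (2% from each end) lay between 500.4 and 500.5, so the authors' deposited signals had been scaled. For this work the trimmed mean was set to 500 on each array, a floor was set at the 30th percentile (40.3), and log2 was taken. Probe sets with at least 2 of 4 arrays above 145.05 were tested, without the 66 array controls, which left 6419. limma 3.58.1 in R 4.3.3 was fitted across all of them (block: matched pair; eBayes, trend on intensity; Benjamini-Hochberg over all tested probe sets, threshold 0.05), with 1 residual degree of freedom and 13.2 from the prior. The SE and p-values printed here are therefore moderated, and rest mostly on the spread of other probe sets. The labels give the pairing. Arrays of one pair deviated together from the means of their groups, with r = 0.19 over probe sets. The fit was tested on simulated data. The number of arrays limits the precision.

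Symbols came from the platform annotation (10814 of 12403 gene probe sets with 1 symbol, 396 with several, 1193 with none). All 59 members kept their symbol through Entrez identifiers in RefSeq's GRCm38.p6 gene table, used for names only. Probe positions were not analysed here.

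Members with an unadjusted p under 0.05, a 2-fold difference in a pair, among the 3 brightest tested of their family or among the 3 with the largest ratio of the control clones are given in every clone, with other probe sets of the same gene. From each gene list up to 4 tested genes of the largest difference, by the brightest probe set, and any with an unadjusted p under 0.05 are named. Members and lists were chosen with earlier results of these data known. The marker lists were used to check the cell type only. Alternatives tried were no block, quantile normalization, scaling to the median, a floor at the median or none, no filter or all 4 arrays above the median, no trend, and leaving out each clone.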

Additional observations from a re-analysis of the deposited data

Results flagged for a closer look

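In 6 of the 23 tested members, the Nurr1-labelled clone differed from its match in opposite directions in the 2 pairs. Each pair is a single array against another, and these differences between pairs were not tested. Itgb1bp1 (100990_g_at) had a log2 difference of 1.72 in clone 42 minus puroB and -0.55 in clone 48 minus puroD, 2.27 apart. Lamc1 (161706_f_at) had -0.14 and 0.74, a difference between pairs of -0.881. Lamb2 (101359_at) had -0.008 and 0.48, a difference of -0.492, where the first value is close to 0. Itgb1 (100123_f_at) had 0.55 and -0.08, which are 0.627 apart. For Itgb5 (100601_at) the values were -0.36 and 0.07, a difference of -0.427, and for Itgav (104386_f_at) 0.26 and -0.10, a difference of 0.368.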

How the results depend on the processing

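The count of 0 members past the adjusted threshold held under all 12 alternatives, with lowest adjusted p-values between 0.113 and 1.0. Over all probe sets 7 passed, but 0 without the replicate block, with quantile normalization, without the floor or without the filter, 17 with the floor at the median, 49 with all 4 arrays above the median and 51 with scaling to the median, and between 0 and 51 when a clone was left out (17 without clone 42, 51 without clone 48, 0 without puroB, 2 without puroD). Members at an unadjusted p under 0.05 in limma numbered 4 without the replicate block and 4 without the filter, against 7, and between 0 and 5 without a clone (5 without clone 42, 4 without clone 48, 0 without puroB, 1 without puroD). Leaving out a clone also left out the block, because no residual degree of freedom would remain.

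Scaling to the median moved the median of all tested probe sets to 0.13, against -0.04. The laminin median was -0.74, between -0.55 and -0.80 without a clone, and -0.074 without the filter, where most added probe sets lie at the floor. The integrin median of -0.03 became 0.014 with quantile normalization, 0.249 with scaling to the median and 0.101 with all arrays above the median, and lay between -0.11 and 0.17 without a clone. The cadherin median of -0.15 became -0.021 with quantile normalization, 0.019 with scaling to the median and 0 without the filter, and lay between -0.25 and 0.043 without a clone. The cause of these moves between scalings was not tested. Counts at 2-fold were 11 (clone 42 with puroB) and 2 (puroB with puroD) without the filter, and 1 (clone 48 with puroD) with the floor at the median and with all arrays above the median.

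Of 273 values of tested members under these alternatives, 11 had the opposite sign. Many of the 273 could not change. The difference is one of group means, which the block, the filter and the trend do not alter. Leaving out the floor did not alter it either, as no tested member had a signal under the floor. With scaling to the median these were Itgav 104385_i_at (0.027), Itgb5 100601_at (0.024) and Cdh3 (0.019). Without clone 42 they were Itgav 104386_f_at and Itgb1 100123_f_at, without clone 48 Itga3, Itgav 98366_at, Lamc1 and Cdh1, and without puroB Itga3 and Itgb7. Leaving out a clone gave values between -0.099 and 0.26 for Itgav 104386_f_at, -0.12 and 0.58 for Itgb1 100123_f_at, -0.86 and 0.22 for Itga3, -1.82 and 0.12 for Itgav 98366_at, -0.018 and 0.62 for Lamc1, -0.54 and 0.043 for Cdh1, and -0.54 and 0.052 for Itgb7. With a clone left out, others kept their sign but moved by over 1.5 times: Cdh2 (0.15 to 0.44), Lamb2 (0.10 to 0.37), Cdh3 (-0.25 to -0.05), Itgb1 100124_r_at (0.04 to 0.28), Itgb5 100601_at (-0.26 to -0.03) and 162218_f_at (0.01 to 0.23), Itgav 104385_i_at (-0.22 to -0.06) and Itgb1bp1 100990_g_at (0.01 to 1.16). The sign never changed for both probe sets of Lamb1 (-0.70 to -1.42) or for Lama4 (-0.58 to -0.87), Lama5 (-0.36 to -1.09), Itga6 (-0.68 to -1.03) and both Itga7 probe sets (0.28 to 0.92). At these probe sets the groups did not overlap, so leaving out a clone could change the size but not the sign.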
